A study of Arabidopsis thaliana with 12 samples.

Results

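The genes described here are 9 nuclear genes of Arabidopsis thaliana, grouped under the name of marker genes of mitochondrial dysfunction. They are AT2G21640 (UPOX), the twin-cysteine genes AT5G09570 and AT5G64400, and AT2G41730, AT2G03130, AT2G32020, AT5G43450, AT5G14730 and AT1G21520, out of 13333 genes that the array reads through a probe set assigned to a single gene. Each is read by 1 probe set, and all 9 passed the filter on dim probe sets. They were chosen as genes induced by mitochondrial stress or induced together with such genes, so the name does not make each an established marker. Their values in sdg8hub2 and sdg8 against wild type, many of them high, were already known from these arrays. Their levels in those comparisons are therefore a description, given with standard errors and without a test. The comparison of hub2 with wild type was taken as having no part in that choice, which could not be checked. It was tested, although the wild-type arrays serve in all of these comparisons.

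Plant mitochondria signal to the nucleus when respiration is impaired, a route called mitochondrial retrograde signalling. NAC transcription factors held at the endoplasmic reticulum are released and switch on a set of nuclear genes, among them alternative oxidases, external NAD(P)H dehydrogenases and small proteins of mitochondria. In seedlings these transcripts are widely used as a readout of inhibited electron transport or oxidative stress. SDG8 is a methyltransferase of histone H3 that acts on transcribed genes, and HUB2 is part of the enzyme that monoubiquitinates histone H2B.

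RNA came from whole seedlings of ecotype Columbia, 6 days old, grown at 22 °C under 16 h of light and 8 h of dark, with no treatment named in the labels. The 4 groups were the double mutant sdg8hub2, the single mutants sdg8 and hub2, and wild type, each with 3 arrays from independently grown biological replicates. The labels name neither the alleles nor the number of lines of each mutant. Whole seedlings mix many cell types, so more RNA per cell and more cells of a type that holds the transcript cannot be told apart.

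Values are MAS5 intensities on a linear scale, whose trimmed mean was 500.1 on all 12 arrays. Log2 differences come from a linear model over the 12 arrays, and a difference is called where the Benjamini-Hochberg adjusted p over 18196 probe sets lies under 0.05. The sdg8 replicates 2 and 3 lay farther from the arrays of the other groups (median root mean square distance 0.85 and 0.82 on the log2 scale) than sdg8 replicate 1 (0.74). Replicate 2 of hub2 had an actin 3' minus 5' difference of 2.06 on the log2 scale, a possible sign of less intact RNA, against 0.996 to 1.53 on the other 11 arrays. A second actin pair set it less apart, with 3.77 against 3.67 in sdg8 replicate 2. On that pair hub2 replicate 1 was the lowest array, at 2.08. The tissue markers named on the array were few: the leaf gene RCA (Rubisco activase) and the root gene PYK10 had intensities of 14600 or more on every array, and the seed and flower markers listed were not analysed here.

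UPOX, AT2G21640, encodes a mitochondrial protein whose transcript rises under oxidative stress. It had intensities of 3718, 4692 and 3470 in sdg8hub2, 1024, 1086 and 1010 in sdg8, and 191, 243 and 208 in hub2, against 149.5, 196 and 169 in wild type. Both groups that carry the sdg8 mutation lay above all wild-type and hub2 arrays without overlap, and every sdg8hub2 array lay above every sdg8 array. The hub2 and wild-type arrays overlapped. The log2 difference from wild type was 4.53 in sdg8hub2 and 2.61 in sdg8, each with an SE of 0.13. On the log2(intensity + 64) scale it was 4.09 and 2.23. On plain log2 values 4 of the 18196 probe sets had a higher difference in sdg8hub2, a rank that only describes a gene chosen with this comparison known.

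AT5G09570 encodes a small mitochondrial protein with paired cysteine motifs, the kind of protein that is folded by disulfide bonds between the mitochondrial membranes. Its intensities were 2979, 2825 and 2891 in sdg8hub2, 624, 822 and 788 in sdg8, and 136, 106 and 81.8 in hub2, against 146, 134 and 118 in wild type. The sdg8hub2 arrays stood highest and closest together (a log2 SD of 0.04, n = 3), the sdg8 arrays came next, and the hub2 arrays were low and overlapped wild type. The log2 difference from wild type was 4.45 in sdg8hub2 and 2.48 in sdg8 (SE 0.16 for each). Taking only replicate 1 of sdg8, the second value was 2.24. On the log2(intensity + 64) scale the differences were 3.92 in sdg8hub2 and 2.03 in sdg8.

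AT5G64400 encodes the closest relative of AT5G09570 among the genes here, with the same cysteine pattern, and it did not follow it. Its intensities were 11762, 10842 and 12514 in sdg8hub2, 11324, 12578 and 10883 in sdg8, and 11592, 11753 and 9999 in hub2, against 10971, 10232 and 10388 in wild type. All 4 groups overlapped, and the 3 mutants differed from wild type by log2 values of 0.15, 0.14 and 0.07 (SE 0.08 for each). The sdg8 value turned to -0.01 with quantile normalization. A RefSeq gene table places 3 other protein-coding genes over part of AT5G64400, and whether the probe set also reads one of them was not tested.

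AT2G41730 is a gene with no role given here, and its probe set is of a type that can cross-hybridise with similar transcripts. Its intensities were 9214, 10572 and 8939 in sdg8hub2, 2625, 3090 and 2671 in sdg8, and 811, 1060 and 843 in hub2, against 610.3, 621 and 627 in wild type. No group overlapped another, and the order from high to low was sdg8hub2, sdg8, hub2 and wild type. The log2 difference from wild type was 3.95 in sdg8hub2 and 2.17 in sdg8 (SE 0.10 for each).

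**Figure D1:**
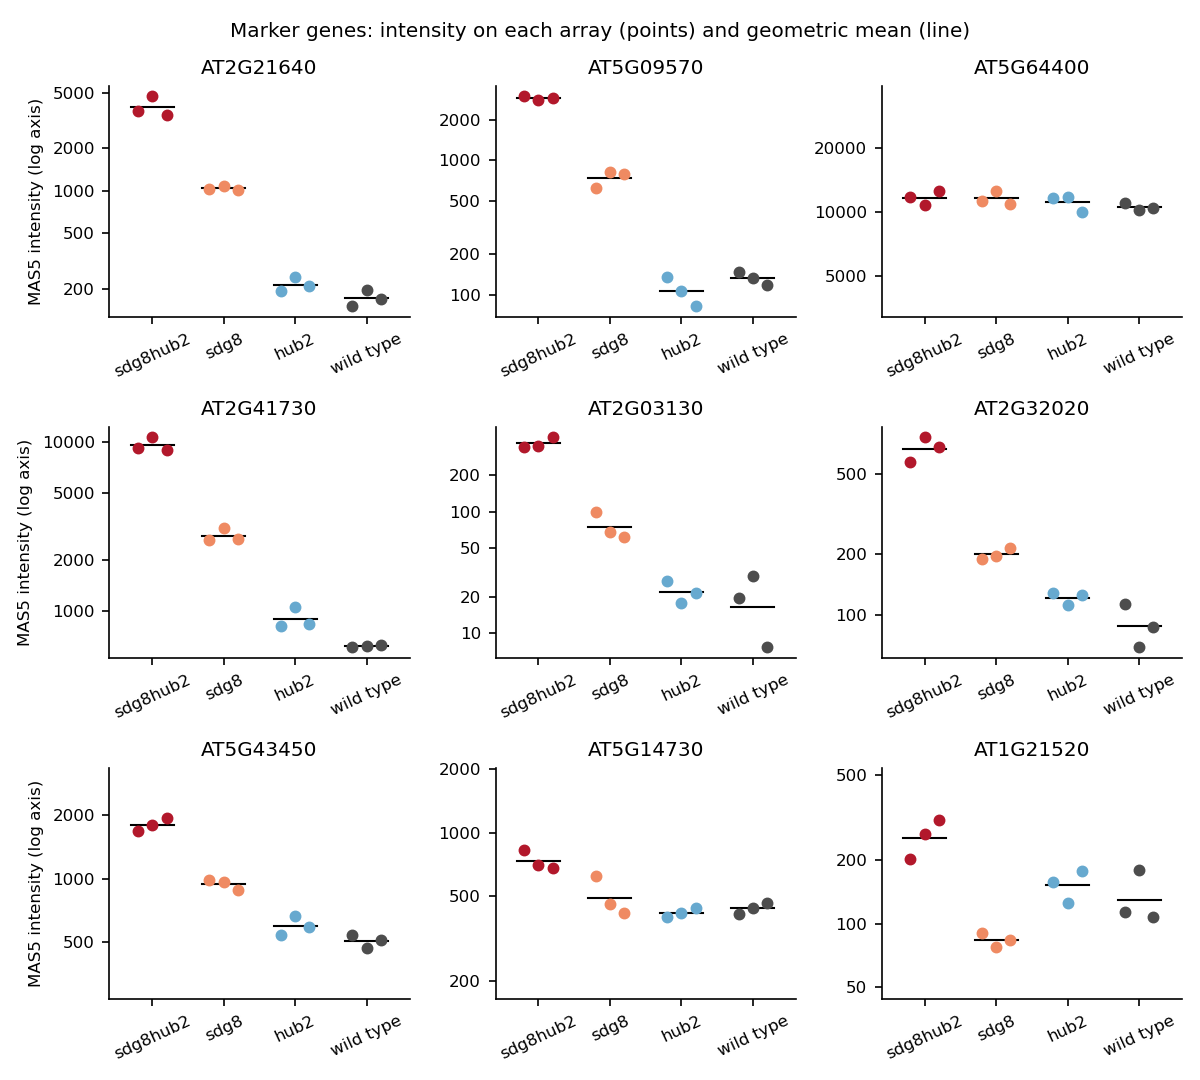
Intensity of each of the 9 marker genes on each of the 12 arrays (log axis, its range set per panel), with points for arrays and a line for the geometric mean of the 3 arrays of a group. In AT2G21640, AT5G09570, AT2G41730, AT2G03130, AT2G32020 and AT5G43450 the sdg8hub2 arrays stand highest and the sdg8 arrays next, while AT5G64400 is level over the 4 groups.

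AT2G03130, annotated to the ribosomal protein L12 family, was dim outside the groups with the sdg8 mutation. It had intensities of 336, 347 and 405 in sdg8hub2, 98.6, 68.1 and 62.0 in sdg8, and 27.0, 17.9 and 21.6 in hub2, against 19.5, 29.8 and 7.7 in wild type. The wild-type mean of 16.5 lay under the filter value of 18.6, and the probe set passed on its mean over the 12 arrays, so its fold changes are poorly determined. On the log2(intensity + 64) scale it differed from wild type by 2.37 in sdg8hub2 and 0.76 in sdg8. On the plain log2 scale those differences were 4.46 and 2.18 (SE 0.44 for each), and 3.91 and 1.63 without wild type replicate 3.

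AT2G32020 encodes a protein of the GNAT acyltransferase family. Its intensities were 569, 753 and 679.8 in sdg8hub2, 189, 197 and 214 in sdg8, and 129, 112 and 127 in hub2, against 114, 69.7 and 87.9 in wild type. The sdg8hub2 arrays and the sdg8 arrays were each apart from all others, and hub2 replicate 2 fell just inside the wild-type range. The log2 difference from wild type was 2.90 in sdg8hub2 and 1.17 in sdg8 (SE 0.19 for each), and 2.24 and 0.78 on the log2(intensity + 64) scale.

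AT5G43450 encodes an oxygenase of the family that uses 2-oxoglutarate and iron. It had 1678, 1779 and 1920 intensity units in sdg8hub2, 984, 965 and 882 in sdg8, and 543, 668 and 589.7 in hub2, against 541, 468 and 514 in wild type. The groups did not overlap, but the lowest hub2 array and the highest wild-type array were almost level. Its log2 differences from wild type, 1.82 in sdg8hub2 and 0.89 in sdg8 (SE 0.11 for each), were 1.70 and 0.82 on the log2(intensity + 64) scale.

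For AT5G14730, with no role given here, the intensities were 829, 700.0 and 678 in sdg8hub2, 624, 459 and 416 in sdg8, and 399.8, 416 and 442 in hub2, against 413, 443 and 467 in wild type. Only the sdg8hub2 arrays lay apart from wild type, by a log2 difference of 0.74 (SE 0.14). The sdg8 difference of 0.16 rested on replicate 1, the highest sdg8 array: it was -0.01 without that array and 0.50 when it alone stood for sdg8.

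AT1G21520, also with no role given here, had a pattern of its own. Its intensities were 201, 264 and 308 in sdg8hub2, 90.7, 77.6 and 83.5 in sdg8, and 157, 125 and 177 in hub2, against 113, 178 and 108 in wild type. All sdg8 arrays lay below all wild-type arrays, and all sdg8hub2 arrays lay above them. The log2 difference from wild type was 0.97 in sdg8hub2 and -0.63 in sdg8 (SE 0.23 for each). Leaving out single arrays moved the second value between -0.76 and -0.40.

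Counted over the 9 genes, 8 had all 3 sdg8hub2 arrays above all 3 wild-type arrays, where 15.3% of all probe sets tested did. In sdg8 against wild type 6 did, where 15.0% of all probe sets did. Since the genes were chosen on these comparisons, nothing is read from those counts. The median log2 difference of the 9 genes was 2.90 in sdg8hub2 and 1.17 in sdg8, and that of all probe sets was -0.05 and -0.02. The plot of each mutant minus wild type shows how far the 9 genes spread around these medians.

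**Figure D2:**
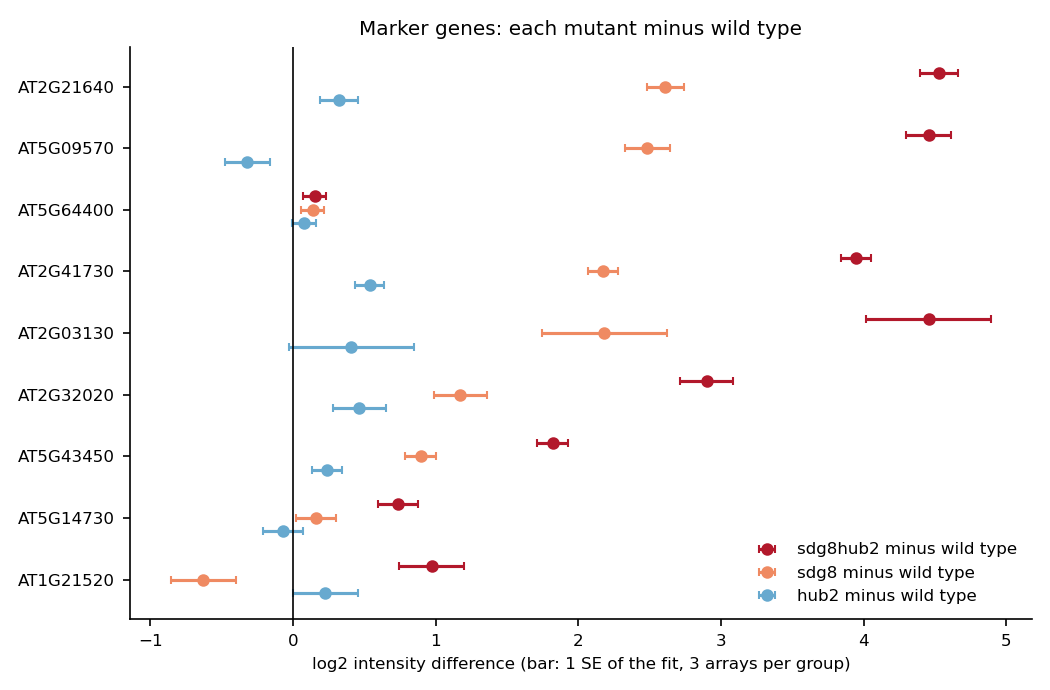
Log2 intensity difference of each marker gene between each mutant and wild type, with bars of 1 SE from the linear model (3 arrays per group). The sdg8hub2 differences run from 0.15 (AT5G64400) to 4.53 (AT2G21640), and the hub2 differences stay between -0.32 and 0.54.

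In hub2 against wild type, taken as having no part in the choice although it shares the wild-type arrays, the marker genes differed little. The values against these wild-type arrays were known at the choice, which can favour genes with low wild-type values. That can raise the hub2 differences, so the counts and p-values below are a description. AT2G41730 rose 1.45-fold, a log2 difference of 0.54 (SE 0.10, limma adjusted p = 0.00552, with all 3 hub2 arrays above all 3 wild-type arrays), and it was the 1 of 9 that passed, where 2.85% of all probe sets did. At an unadjusted p under 0.05, 4 of the 9 passed, where 14.8% of all probe sets did. A positive difference was seen in 7 of 9, where 50% of all probe sets had one, with a median of 0.24 over the 9 genes and 0.0003 over all probe sets. In 2 of 9, AT2G41730 and AT5G43450, the hub2 arrays lay wholly above the wild-type arrays, where 10.6% of all probe sets did.

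The other 8 genes did not pass in hub2. UPOX differed by 0.32 (SE 0.13, limma adjusted p = 0.236), AT2G32020 by 0.46 (SE 0.19, limma adjusted p = 0.226) and AT5G43450 by 0.24 (SE 0.11, limma adjusted p = 0.293). AT5G09570 had a log2 difference of -0.32 (SE 0.16, limma adjusted p = 0.353), and AT5G14730 one of -0.07 (SE 0.14, limma adjusted p = 0.88). AT1G21520 stood at 0.23 and AT5G64400 at 0.07 (limma adjusted p = 0.728 and 0.757). AT2G03130, at 0.41 on the log2 scale (limma adjusted p = 0.748), was dim in both groups and turned to -0.14 without wild type replicate 3. A p that misses the threshold does not show that these levels are the same.

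The call of AT2G41730 in hub2 was not made without the variance trend (limma adjusted p = 0.0908) or after adjustment for the actin difference (0.37 on the log2 scale, limma adjusted p = 0.0779). Replicate 2, the array with the high actin difference, was the highest hub2 array for AT2G41730, UPOX, AT5G43450 and AT5G64400, and the lowest for AT2G03130, AT2G32020 and AT1G21520. Its part in these values was not tested beyond that adjustment and leaving it out. Without it AT2G41730 differed by 0.42 (limma adjusted p = 0.0272).

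The double mutant was set against sdg8 to ask what the hub2 mutation adds in seedlings that already carry the sdg8 mutation. In 8 of 9 genes all sdg8hub2 arrays lay above all sdg8 arrays, where 14.0% of all probe sets did. These arrays also entered the comparisons on which the genes were chosen, so the count is a description. UPOX, AT5G09570, AT2G41730, AT2G32020 and AT1G21520 were 3.03-fold to 3.92-fold higher in sdg8hub2 than in sdg8, and the dim AT2G03130 was 4.84-fold higher. AT5G43450 and AT5G14730 were 1.90-fold and 1.49-fold higher, and AT5G64400 had a ratio of 1.01. On the log2(intensity + 64) scale the difference was 1.61 for AT2G03130, 1.11 for AT1G21520 and 0.88 for AT5G43450. For AT5G14730 the log2 difference of 0.57 was 0.23 when replicate 1 alone stood for sdg8.

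The hub2 mutation without the sdg8 mutation gave the small hub2 differences above. The interaction, which is the log2 step between sdg8hub2 and sdg8 less the step between hub2 and wild type, was 2.29 (SE 0.22) for AT5G09570, 1.59 (SE 0.19) for UPOX, 1.24 (SE 0.15) for AT2G41730 and 1.27 (SE 0.26) for AT2G32020. It was 0.69 (SE 0.15) for AT5G43450, 0.65 (SE 0.20) for AT5G14730 and 1.38 (SE 0.32) for AT1G21520. The AT5G14730 interaction was 0.30 when replicate 1 alone stood for sdg8, and that of AT1G21520 was 0.96 on the log2(intensity + 64) scale. For AT5G64400 it was -0.06 (SE 0.12), and 0.12 with quantile normalization. AT2G03130 had 1.87 (SE 0.62), and 2.42 without wild type replicate 3. Of all probe sets 6.46% were called for this interaction, and for the 9 genes it is a description.

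In intensity units, the double mutant held 2900 for AT5G09570 where the 2 single effects added on the log2 scale give 591. For UPOX it held 3930 where they give 1300, and for AT2G41730 9550 where they give 4040. Adding the single effects on the linear scale gives 720 for AT5G09570, where the observed mean was 2900, and 1080 for UPOX, where it was 3960. On either scale the double mutant lay above the sum in 8 of 9 genes, and under it for AT5G64400 (11700 against 12200). Of all probe sets 49.6% lay above the sum on the log2 scale, and the share on the linear scale was not computed. The genes were chosen with their sdg8hub2 values known, so this count is a description.

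**Figure D3:**
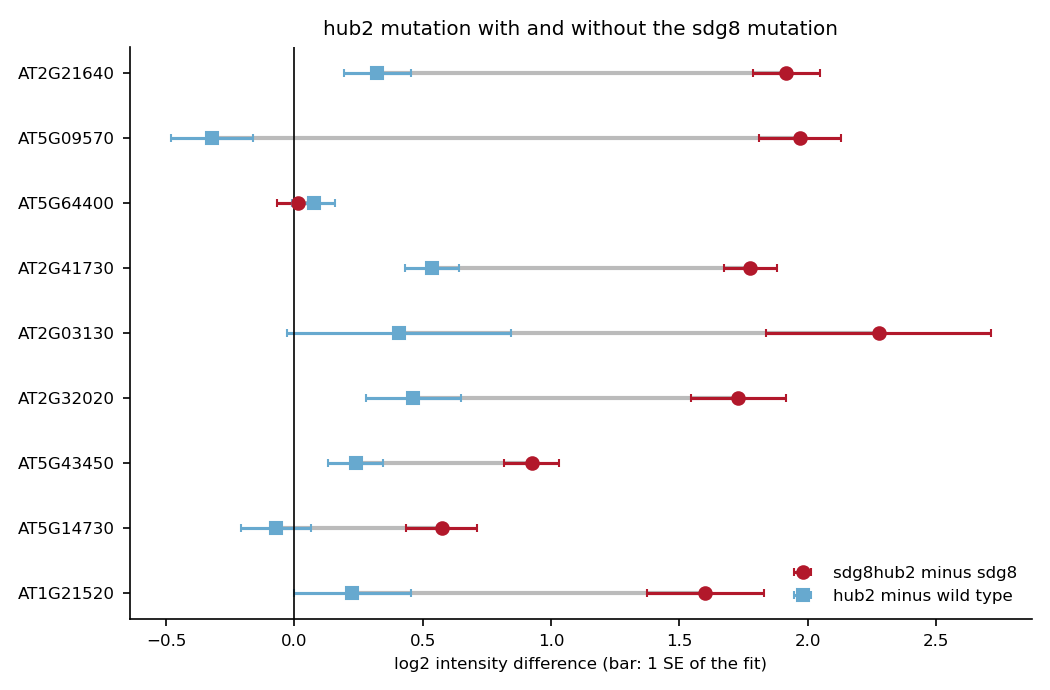
Log2 intensity difference of each marker gene for sdg8hub2 minus sdg8 (circles) and hub2 minus wild type (squares), with bars of 1 SE from the linear model. The circles lie right of the squares for every gene except AT5G64400, and the gap is widest for AT5G09570 (1.97 against -0.32).

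Correlations over the 12 arrays carry the group differences on which the genes were chosen, so they only describe the genes. The correlation of each gene with the mean of the other 8 was 0.95 to 0.98 for UPOX, AT5G09570, AT2G41730, AT2G03130, AT2G32020 and AT5G43450, 0.85 for AT5G14730, 0.46 for AT5G64400 and 0.44 for AT1G21520 (Pearson's r on log2 values, 12 arrays that share their 4 groups). Within groups the genes did not move as one. Over deviations from the group means, the 36 pairs had a median r of -0.05 and ranged from -0.58 to 0.76, with 16 above 0. The highest was that of UPOX with AT2G41730, and AT5G09570 with AT5G64400 had 0.60.

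Outside the 9 genes, the 8 single-gene probe sets most like them were sought among 10221, by Pearson's r over the 12 arrays with the mean of the 9 genes' scaled log2 values. These were AT1G76550, a subunit gene of pyrophosphate-dependent phosphofructokinase (r = 0.98), AT2G04050, which encodes a MATE-type transporter (0.98), AT3G45730 (0.98), BIGYIN, which encodes a protein of mitochondrial and peroxisomal fission (0.98), AT2G35480 (0.98), AT2G36930 (0.97), AT3G23620 (0.97) and AT5G40690 (0.97). Their size of change differed widely. AT2G04050 had mean intensities of 1740 in sdg8hub2, 433 in sdg8 and 184 in hub2, against 145 in wild type. BIGYIN had 4630, 3230 and 2790 in the same mutants, against 2490 in wild type.

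Other genes of the same response were followed through lists that were written down with earlier results of these data known. Their counts and p-values therefore describe the listed genes and are no independent support. Of 12 alternative respiration genes 5 are named on the array, all of them NAD(P)H dehydrogenases that bypass complex I, and no alternative oxidase is among them. Among them 3 rose in sdg8hub2, 1 in sdg8 and 1 in hub2, each against wild type, where 18.5%, 14.3% and 2.85% of all probe sets changed. NDB4, an external dehydrogenase, had intensities of 559, 681 and 502 in sdg8hub2 and 62.5, 90.5 and 150 in sdg8. Its wild-type arrays lay at 3.62, 4.48 and 23.4, with a mean near background and under the filter value of 18.6. On the scale of log2(intensity + 64) it differed from wild type by 3.11 in sdg8hub2, 1.12 in sdg8 and 0.47 in hub2 (limma adjusted p = 1.51e-12, 6.89e-05 and 0.181). On plain log2 values the limma adjusted p were 2.21e-08, 3.82e-05 and 0.0165 in the same order. The hub2 call, made only on plain log2 values, was also lost without wild type replicate 1 or 2 or hub2 replicate 1. It was lost too without the variance trend, with the actin covariate and with only the groups compared (limma adjusted p = 0.148, 0.128 and 0.303).

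NDB3 rose by 2.59 on the log2 scale in sdg8hub2 (SE 0.55, limma adjusted p = 0.00177) and by 1.28 with 64 added to each intensity, and it was 1.60 without wild type replicate 2, which lay at 8 where the other wild-type arrays lay at 54.5 and 73.6. NDB2 rose by 0.55 (SE 0.15, limma adjusted p = 0.0115). The NDB2 call was lost without wild type replicate 3 (limma adjusted p = 0.0576). NDB1 and NDC1 did not pass in any of the 4 comparisons between groups, with log2 differences between -0.31 and 0.02.

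Of 19 other mitochondrial stress genes 8 are named on the array. As for all the lists, the counts are a description, since earlier results of these data were known. In sdg8hub2 against wild type 6 rose and 1 fell, with a median log2 difference of 1.93. In sdg8 4 rose and 1 fell (median 0.51), and in hub2 2 rose (median 0.30), beside changes in 18.5%, 14.3% and 2.85% of all probe sets for sdg8hub2, sdg8 and hub2. Against sdg8 6 were higher in sdg8hub2 and 0 lower (median 1.11, 2 did not pass), where 14.4% of all probe sets changed.

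AT5G51440, a small heat shock protein gene of mitochondria, had intensities of 1030, 1240 and 1010 in sdg8hub2 and 422, 521 and 576 in sdg8. It rose by log2 differences of 3.67, 2.55 and 1.04 in sdg8hub2, sdg8 and hub2 (limma adjusted p = 1.19e-11, 5.13e-09 and 0.00345), and the hub2 call was lost without the variance trend and with the actin covariate. With 64 added to each intensity its differences were 2.94, 1.92 and 0.69. GSTU25, a glutathione transferase gene, rose by 2.08, 1.94 and 0.77 in the same order (limma adjusted p = 1.92e-11, 8.49e-11 and 0.000342), with no call between sdg8hub2 and sdg8 (0.14, limma adjusted p = 0.453).

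The neighbouring transporter genes AT2G04050 and AT2G04070, of 1 family, were 4.01-fold and 5.60-fold higher in sdg8hub2 than in sdg8 (limma adjusted p = 3.04e-08 and 1.23e-06). AT2G04070 was dim in sdg8, and its log2 difference of 2.49 was 1.69 with 64 added to each intensity. Of this pair only AT2G04050 passed in sdg8 against wild type, by 1.57 (limma adjusted p = 5.7e-07), while AT2G04070 stood at 0.35 (limma adjusted p = 0.435). Whether their probe sets share signal was not tested. AT5G40690, with no role given here, rose by 1.78 in sdg8hub2 and 0.68 in sdg8. In addition, 2 genes named only after their values were seen went the other way. STZ, a zinc finger gene, fell by 0.85 in sdg8 (limma adjusted p = 0.00738) and AT4G01870 fell by 0.81 in sdg8hub2 (limma adjusted p = 0.0009), and the STZ call was lost when replicate 1 alone stood for sdg8 (limma adjusted p = 0.406). AT3G61930, also named after its values were seen, is the sixth gene that rose in sdg8hub2, by 1.72 (limma adjusted p = 0.0375, and 0.99 with 64 added), and its call was lost without any 1 of the wild-type or sdg8hub2 arrays.

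**Figure D4:**
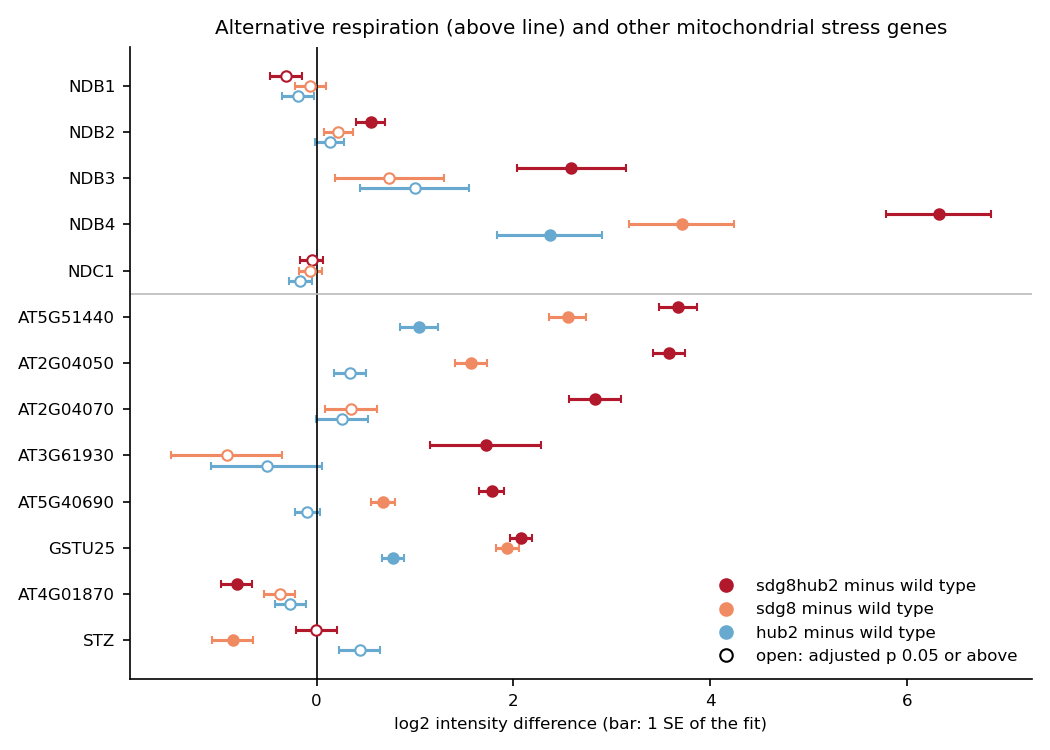
Log2 intensity difference between each mutant and wild type for 5 alternative respiration genes (above the line) and 8 other mitochondrial stress genes, with bars of 1 SE and open circles where the limma adjusted p is 0.05 or above. NDB4, AT5G51440 and AT2G04050 have the highest sdg8hub2 values, 6.32, 3.67 and 3.58, and the NDB4 wild-type mean is close to background.

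Of 7 core hypoxia genes tested, 1 rose and 1 fell in sdg8hub2, 1 rose in sdg8 and 1 fell in hub2, where 18.5%, 14.3% and 2.85% of all probe sets changed. AT3G03270, which encodes a universal stress protein, rose by 1.28 in sdg8hub2 and 0.65 in sdg8 (limma adjusted p = 3.78e-08 and 0.000308), and PDC2, a pyruvate decarboxylase gene, did not pass in any of the 4 comparisons. The gene that fell in sdg8hub2 was AT1G33055, by 0.75 (limma adjusted p = 0.000665). AT5G66985 fell by 0.74 in hub2 (limma adjusted p = 0.0071). Its call was lost without the variance trend or wild type replicate 1 (limma adjusted p = 0.0727 and 0.0718). Of the mitochondrial chaperones and proteases 1 of 19 is named on the array, the Clp protease gene NCLPP7, and it did not pass, with log2 differences between -0.16 and 0.03. Of the proteins of the intermembrane space with paired cysteines 1 of 12 is named, the copper chaperone gene AT1G53030, and it fell by 1.03 in sdg8 (limma adjusted p = 3.97e-06) and stood at -0.21 in sdg8hub2 (limma adjusted p = 0.269).

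Of the tissue markers, RCA rose by 0.30 in sdg8 (limma adjusted p = 0.014, and 0.06 with limma adjusted p = 0.553 under quantile normalization), a call also lost without wild type replicate 1 or sdg8 replicate 2 or 3, and it stood at 0.02 in sdg8hub2. PYK10 stood at -0.16 in sdg8hub2 and -0.19 in sdg8 and did not pass, and the root hair gene EXPA7 fell by 0.66 in sdg8hub2 (limma adjusted p = 0.0216), a call that was lost without either of 2 wild-type arrays (replicates 2 and 3) or of 2 sdg8hub2 arrays (replicates 1 and 2). The part of tissue makeup in the levels of the marker genes was not tested.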

How the data were processed

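Transcript levels were measured on Affymetrix arrays in 12 samples (4 groups of 3). The authors deposited 1 table of intensities on a linear scale, made with MAS5 and the affy package per the submitters' processing notes, with versions not given in the sources used here. Detection calls and scanner files were not used. The 9 genes and all gene lists were chosen with earlier results of these data known.

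Intensities were floored at the 1st percentile (1.18) and taken as log2. Of 22810 probe sets, 64 controls were left out, and 18196 with a mean above the 20th percentile (18.6) were tested. A mean per group was fitted in limma 3.58.1 (R 4.3.3) with a variance trend, and two-sided p-values were Benjamini-Hochberg adjusted over all probe sets. Probe sets were named from the platform annotation, with 13513 assigned 1 gene and 503 several, and 13436 matched a RefSeq table of TAIR10.1. Per gene the brightest probe set was used. From each list, up to 4 called genes with the smallest p were named, with other listed genes, called or not, beside them. The 8 single-gene probe sets closest in profile to the 9 genes were named too. The samples were not treated as paired by replicate number, since their deviations showed no clear correlation (r from -0.13 to 0.04). The probe sets of SDG8 and HUB2, and the retrograde regulators listed, carry no name in the annotation and were not analysed here. Alternatives tried were other scalings, filters, variance models, a started log2 scale, a replicate block, an actin covariate, only the groups compared, and leaving out each array. The number of arrays limits the precision.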

Additional observations from a re-analysis of the deposited data

Results flagged for a closer look

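The effect of the hub2 mutation differed between seedlings with and without the sdg8 mutation for 9 genes of the lists. This was judged by the interaction term of the linear model (limma adjusted p under 0.05, where 6.46% of all probe sets passed). The lists were written with earlier results known, so the count is a description. In each sentence the log2 difference sdg8hub2 minus sdg8 comes before hub2 minus wild type. AT2G04050 had 2.01 and 0.34, an interaction of 1.66 (SE 0.23, limma adjusted p = 7.98e-05). AT2G04070 had 2.49 and 0.26, an interaction of 2.23 (SE 0.37, limma adjusted p = 0.000569), and of 1.58 with 64 added to each intensity. AT5G40690 had 1.10 and -0.09, an interaction of 1.20 (SE 0.18, limma adjusted p = 0.000161). GSTU25 went the other way, with 0.14 and 0.77 and an interaction of -0.63 (SE 0.16, limma adjusted p = 0.0193). For AT3G61930, named only after its values were seen, the values were 2.63 and -0.50 and the interaction 3.14 (SE 0.80, limma adjusted p = 0.0201). With 64 added to each intensity its interaction was 1.41 and its difference between sdg8hub2 and sdg8 1.22, and sdg8 replicate 2 lay at 7.24 where the other sdg8 arrays lay at 49.5 and 49.8. The copper chaperone gene AT1G53030 had 0.82 and -0.38, an interaction of 1.20 (SE 0.17, limma adjusted p = 0.000138). AT3G03270 and AT5G66985 of the hypoxia list had interactions of 0.71 (limma adjusted p = 0.00818) and 0.81 (limma adjusted p = 0.0233). RCA, the leaf marker, had -0.28 and 0.12, an interaction of -0.40 (limma adjusted p = 0.0377), which was lost in most alternatives (-0.07 under quantile normalization). Without the variance trend the calls of GSTU25, AT3G61930, AT5G66985 and AT3G03270 were lost too. The GSTU25 call was lost without wild type replicate 1 or sdg8hub2 replicate 3 (limma adjusted p = 0.0672 and 0.061), with median centring (0.052) and when replicate 1 alone stood for sdg8 (0.12), and that of AT3G61930 without wild type replicate 3 or sdg8hub2 replicate 1 or 3 (limma adjusted p = 0.0578, 0.0504 and 0.0503), with the actin covariate (0.0525) and when replicate 1 alone stood for sdg8 (an interaction of 2.21, limma adjusted p = 0.057). That of AT5G66985 was lost without wild type replicate 1 or without replicate 3 of sdg8, hub2 or sdg8hub2 (limma adjusted p = 0.0815, 0.0563, 0.0667 and 0.0565), and when replicate 1 alone stood for sdg8 (0.163).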

How the results depend on the processing

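Arrays of the same replicate number showed no clear correlation of their deviations from the group means, which does not exclude a shared batch. With the replicate block 448 probe sets changed in hub2, 2486 in sdg8 and 3264 in sdg8hub2 against wild type, 2543 between sdg8hub2 and sdg8, and 1083 in the interaction, in place of 519, 2598, 3367, 2623 and 1175. The hub2 count was 341 with median centring, 127 without the variance trend and 233 with the actin covariate, and the interaction count was 530 without the trend. Without single arrays the counts ran from 210 to 349 in hub2, 1768 to 2318 in sdg8, 2450 to 2933 in sdg8hub2, 2003 to 2297 between sdg8hub2 and sdg8, and 805 to 1146 in the interaction. When replicate 1 alone stood for sdg8, an alternative chosen after the data were seen with that array assumed to vary like the other groups, the counts were 1110 in sdg8, 971 between sdg8hub2 and sdg8 and 528 in the interaction. Of the 9 marker genes, 1 was called in hub2, and 0 were called without the trend or under the covariate, while without single arrays it was 1 throughout. With median centring the share of calls that were higher was 56.5% in sdg8 and 57.4% in sdg8hub2 against wild type, in place of 44.9% and 43.3%. In none of the alternatives did a called difference of a marker gene or list gene change sign. The cause of these shifts was not tested.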

Other observations

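The genes next to the 9 marker genes were looked at after the data were seen. Among the 3 protein-coding genes on each side of each marker gene, 54 in all, 21 were tested. In sdg8hub2 against wild type 3 of these changed (14.3%, and 18.5% of all probe sets). AT2G32030, next to AT2G32020 and of the same acyltransferase family, rose by 1.52 (limma adjusted p = 0.00167), AT5G43460, next to AT5G43450, rose by 0.42 (limma adjusted p = 0.00092), and RD2, near UPOX, fell by 0.32 (limma adjusted p = 0.00943). In sdg8 against wild type 1 of 21 changed (4.76%, and 14.3% of all probe sets), EXPA15 near AT2G03130, which rose by 0.65 (limma adjusted p = 0.00614). In hub2 against wild type 2 of 21 changed (9.52%, and 2.85% of all probe sets), AT1G21500 near AT1G21520 by 0.48 and SPP next to AT2G03130 by -0.34 (limma adjusted p = 0.0156 and 0.04). Between sdg8hub2 and sdg8 2 of 21 changed (9.52%, and 14.4% of all probe sets), AT5G43440, next to AT5G43450 and of the same oxygenase family, by 0.72 and EXPA15 by -0.59 (limma adjusted p = 0.0405 and 0.0118). Whether the AT2G32030 probe set also reads AT2G32020 was not tested.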
